A study of Arabidopsis thaliana with 12 samples.

Results

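Photosystem and light-harvesting genes were examined in roots of Arabidopsis thaliana. The members were the features of an expression array that the platform annotation assigns to a single gene among PSBY (AT1G67740), PSBW (AT2G30570), LPA19 (AT1G05385), LHB1B2 (AT2G34420) and PSAN (AT5G64040). Each gene had 1 such feature, so there were 5 members among 692 features with 1 gene and 3439 features in all. The rule used gene names and no measured value, but the genes were proposed with earlier results of these data known. The 12 samples were total RNA from roots of the wild type (WT, 6 samples) and of the mutant kn09 (6 samples), both of ecotype Wassilevskija. Before RNA was taken, all roots, WT and kn09 alike, spent 48 h on MS with 100 mM glucose, so neither group lacked the sugar. The labels give kn09 as hypersensitive to proline and blocked in its breakdown in mitochondria. They name neither its allele nor any proline treatment. They do not say whether the 6 samples of a genotype came from separate cultures, so p-values measure the spread of these samples only, and part of it may be technical.

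Photosystem II splits water and passes electrons through the cytochrome b6f complex and plastocyanin to photosystem I, and both are fed by antenna proteins that bind chlorophyll. All 5 members are encoded in the nucleus and imported into plastids. Roots are mostly non-green, although roots that grow in light can form chloroplasts, and sugars are known to repress many nuclear photosynthesis genes in green tissue. PsbY and PsbW are small membrane proteins of photosystem II, the first made from a precursor that yields a pair of related proteins. LPA19, a Psb27-like protein of the thylakoid lumen, helps to process the D1 protein as photosystem II is assembled. LHB1B2 is an Lhcb1 protein of the main antenna, LHCII, and PsaN is a lumenal subunit of photosystem I near the site where plastocyanin docks.

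The deposited values are intensities relative to each sample's brightest features, which stand at 100. WT and kn09 differed over the whole array. The median intensity per sample was 0.139 to 0.227 in WT and 0.102 to 0.121 in kn09, and 153 to 235 features stood at exactly 0 in WT against 398 to 522 in kn09. Consecutively numbered samples of a genotype (1 and 2, 3 and 4, 5 and 6) correlated across features, on normalized log2 values, at 0.894 to 0.928 in WT and 0.817 to 0.867 in kn09. Other sample pairs of a genotype correlated at 0.811 to 0.883 and 0.809 to 0.834. Means of consecutive samples are therefore given beside results below. The names of the features rest on the annotation alone. In 94 pairs of features that carried the same annotation, none of which held a member, the mean levels correlated at r = 0.30 and the log2 differences between genotypes at r = -0.06. Of 41 root marker symbols none lay on a feature with 1 gene, so the tissue label could not be checked with them. Of 27 green-tissue symbols 2 did, PRK and SBPASE, both enzymes of the Calvin cycle. The intensity of PRK was 1.32 ± 0.357 for WT and 1.86 ± 0.101 for kn09, and that of SBPASE was 0.228 ± 0.0283 and 0.130 ± 0.0347 (SD, n = 6 each). After the normalization described below, PRK was called higher in kn09, with a log2 difference of 0.78 (limma adjusted p = 0.0271), and SBPASE was not called, at -0.03 (limma adjusted p = 0.925). The part of green tissue in the results below was not tested.

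All 5 members were above 0 in all 12 samples, as were 2193 of the 3439 features. By mean intensity over the 12 samples all 5 lay in the brightest 25% of features, although LPA19 fell outside it in some samples. LHB1B2 and PSBW stood among the 20 brightest features of every sample. PSAN ranked between 58 and 119 from the brightest, PSBY between 154 and 344, and LPA19 between 452 and 992. Intensities of different features also depend on how each probe hybridizes, so these ranks do not order the genes by transcript number.

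**Figure D1:**
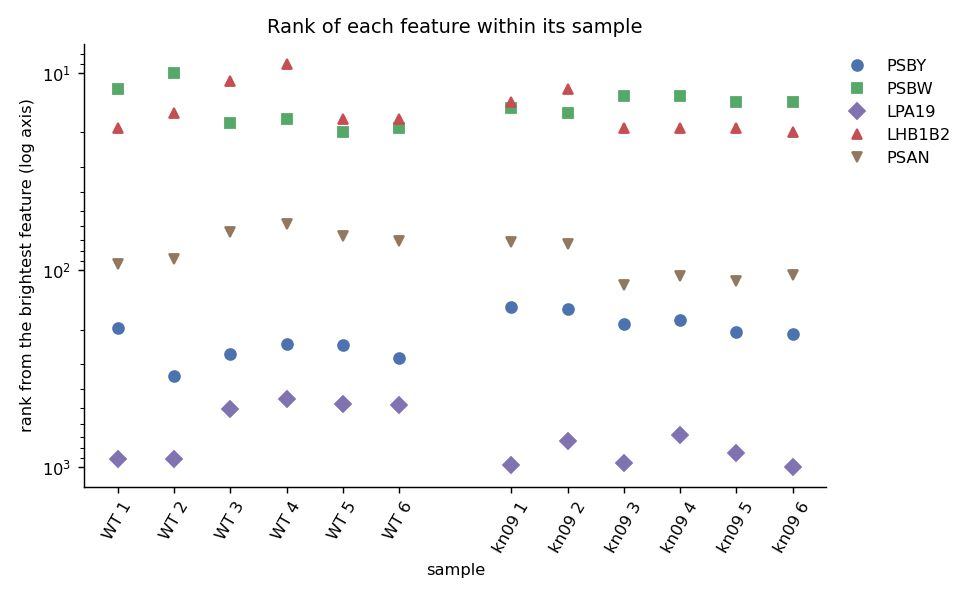
Rank of each of the 5 features within its own sample, counted from the brightest of 3439 features (log axis, brightest at the top), for 6 WT and 6 kn09 samples on the horizontal axis. LHB1B2 and PSBW lie among the 20 brightest features of every sample, and LPA19 has the widest span of ranks, from 452 to 992.

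The genotypes were compared under a shared treatment, so the comparison asks about genotype and not about glucose. After quantile normalization and a limma fit over all features, 12.8% of features passed an adjusted p of 0.05, and 0 of the 5 members did. The deposited intensities of the genotypes did not overlap in 16.7% of all features, and overlapped in all 5 members. At an unadjusted p under 0.05 there were 2 members, PSBY on the higher side and LPA19 on the lower side in kn09, against 1040 of all 3439 features. A second reading used the percentile rank of each feature within its sample, which needs no scaling between samples, with an exact 2-sided permutation test. The second reading is not independent of the first, as quantile normalization also sets each value by its rank within the sample. A like result in both is therefore close to 1 reading. By that reading 14.2% of all features passed after adjustment over all features and 1 of the 5 members did, PSBY. The share of members called is thus close to that of all features. In these bulk samples, fewer cells of a type and less RNA per cell cannot be told apart.

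Of the photosystem II subunits, PSBY and PSBW had an SD in kn09 of 11.1% and 12.2% of the mean deposited intensity. After normalization, which sets each value by its rank within the sample, the log2 SD in kn09 was 0.215 for PSBY and 0.0995 for PSBW (n = 6 each). PSBY ranked between 154 and 211 there and PSBW between 13 and 16, so these SDs do not compare how even the 2 intensities were. In WT samples 1 to 6 the intensity of PSBY was 2.58, 1.45, 2.03, 2.30, 2.23 and 1.91, and in kn09 samples 1 to 6 it was 3.04, 2.90, 2.76, 2.92, 2.38 and 2.32. All 6 kn09 samples lay above the WT median, 4 of them above every WT sample, and the groups overlapped through WT sample 1. The WT mean was 2.08 ± 0.389 and the kn09 mean 2.72 ± 0.302 (SD, n = 6 each). Means of consecutive samples were 2.02, 2.16 and 2.07 in WT and 2.97, 2.84 and 2.35 in kn09, and did not overlap, as was so for 38.1% of all features but for 2.62% with kn09 higher. The normalized log2 difference was 0.58 ± 0.19 (SE; 95% interval 0.17 to 1.0), which missed the threshold in limma (adjusted p = 0.0654). The percentile rank rose from 92.5 ± 1.45 to 94.7 ± 0.695 (SD, n = 6 each; exact permutation adjusted p = 0.0457), where 8.2% of all features were called higher. That call was lost when any 1 sample other than WT sample 1 was left out (exact permutation adjusted p up to 0.0944), and the test then has fewer labelings. Without WT sample 1, the highest of its group, the rank difference was 2.64 points, and without WT sample 2, the lowest, it was 1.78 points.

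PSBW was one of the brightest features of the array. Its intensity in WT samples 1 to 6 was 39.4, 45.2, 29.7, 30.7, 22.3 and 25.2, and in kn09 samples 1 to 6 it was 36.4, 38.0, 39.0, 42.4, 49.4 and 46.5. WT samples 1 and 2 stood within the kn09 range, while the other 4 WT samples lay below every kn09 sample. The WT mean was 32.1 ± 8.68 and the kn09 mean 41.9 ± 5.13 (SD, n = 6 each), so the deposited means differed by 1.31-fold, as those of PSBY did. The normalized log2 difference was 0.16 ± 0.19 (SE; 95% interval -0.26 to 0.58; limma adjusted p = 0.612), and its rank from the brightest went from 16.0 ± 4.05 to 14.2 ± 1.17 (SD, n = 6 each). With all samples the percentile rank was 0.0533 points higher in kn09. Without WT samples 1 and 2, the only WT samples not below every kn09 sample here, it was 0.126 points higher and passed (exact permutation adjusted p = 0.0272). Leaving them out removed the overlap, so the exact permutation test gave its smallest possible unadjusted p, 0.00476. The pass thus followed from which samples were left out. PSBW did not pass in limma in that setting, with a log2 difference of 0.40 (limma adjusted p = 0.0652). There 23.0% of all features passed by rank and 24.0% in limma, so leaving out these samples raised the calls over the whole array.

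LPA19, the assembly factor, had the largest fold between deposited means of the 5 and the lowest intensity among them. Its values in WT samples 1 to 6 were 0.458, 0.462, 1.03, 1.13, 0.927 and 0.914, and those in kn09 samples 1 to 6 were 0.258, 0.378, 0.307, 0.502, 0.335 and 0.266. WT samples 3 to 6 stood above every kn09 sample, and WT samples 1 and 2 overlapped with kn09 sample 4 alone. The WT mean was 0.821 ± 0.290 and the kn09 mean 0.341 ± 0.0904 (SD, n = 6 each), 2.40-fold apart. Means of consecutive samples, at 0.460, 1.08 and 0.920 in WT and 0.318, 0.405 and 0.301 in kn09, did not overlap, as was so with kn09 lower for 35.4% of all features. Relative to the other features the difference was smaller. The normalized log2 difference was -0.68 ± 0.29 (SE; 95% interval -1.30 to -0.06; limma adjusted p = 0.134), and the rank went from 620.8 ± 219.2 to 863.5 ± 128.5 from the brightest (SD, n = 6 each). On the intensities as deposited LPA19 was called lower, with a log2 difference of -1.21 (limma adjusted p = 0.010). In that fit the median of all features was -0.85, and 1158 of 3439 features were called lower. Without WT samples 1 and 2, again the only ones to overlap with kn09, the normalized difference was -1.11 (limma adjusted p = 0.00281). The rank difference was then -11.2 percentile points in place of -7.06 (exact permutation adjusted p = 0.0272 in place of 0.143). In that setting 24.0% of all features passed in limma and 23.0% by rank. As for PSBW, the rank test gave its smallest possible p, so that pass followed from which samples were left out.

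**Figure D2:**
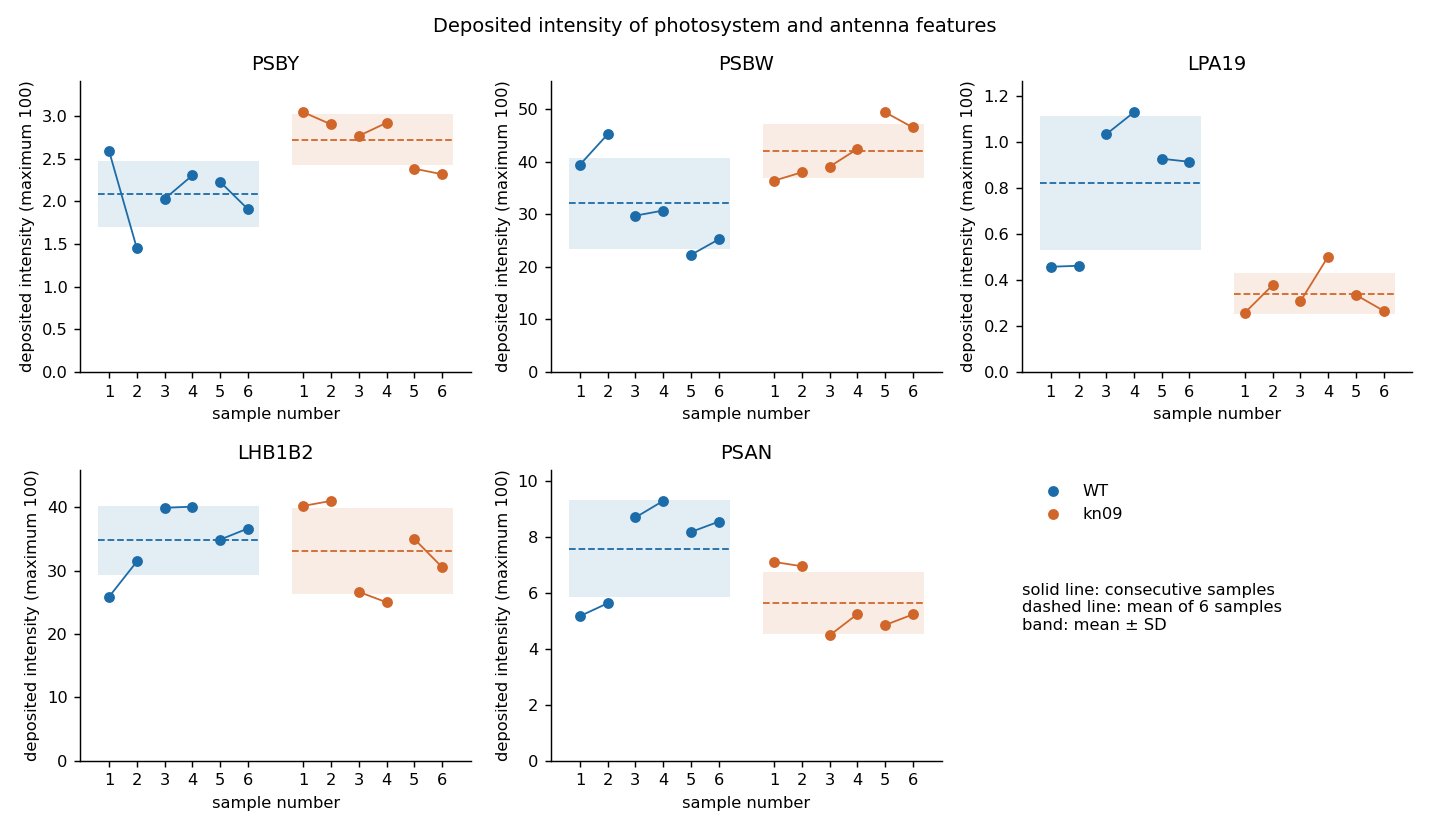
Deposited intensity (linear, brightest feature of each sample at 100) of each gene's feature in samples 1 to 6 of WT (blue) and kn09 (orange), with consecutive samples joined, the mean of 6 samples dashed and mean ± SD as a band. For PSBW, LHB1B2 and PSAN joined samples lie close together and the pairs apart, and in LPA19 WT samples 1 and 2 stand at 0.458 and 0.462, below the other WT samples.

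The antenna gene LHB1B2 did not separate the genotypes by either reading. Its intensity in WT samples 1 to 6 was 25.9, 31.4, 39.9, 40.1, 34.9 and 36.6, and in kn09 samples 1 to 6 it was 40.2, 41.0, 26.6, 25.0, 35.0 and 30.6. Each genotype held both high and low samples, and the ranges coincided almost fully. The means of 34.8 ± 5.44 and 33.1 ± 6.78 (SD, n = 6 each) differed by less than the spread between samples. The normalized log2 difference was -0.24 ± 0.22 (SE; limma adjusted p = 0.498), with a 95% interval from -0.71 to 0.24, that is from 0.611 to 1.18 times the WT level. LHB1B2 is 1 of 5 Lhcb1 genes in the reference table, where its next neighbour is LHB1B1, and it was the only one of them on a feature with 1 gene. A probe that matches several near-identical Lhcb1 transcripts cannot separate them, and probe sequences were not used here, so the assignment to LHB1B2 alone is uncertain. Another antenna feature, annotated to 3 genes of the Lhcb4 family together, stood at 2.70 ± 0.819 for WT and 2.22 ± 0.394 for kn09 (SD, n = 6 each), with a normalized log2 difference of -0.07 ± 0.23 (SE; limma adjusted p = 0.865).

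PSAN was the lone member of photosystem I. Its intensity in WT samples 1 to 6 was 5.18, 5.64, 8.70, 9.30, 8.18 and 8.55, and in kn09 samples 1 to 6 it was 7.11, 6.96, 4.48, 5.24, 4.85 and 5.23. WT samples 3 to 6 lay above every kn09 sample and all 6 kn09 samples lay below the WT median, while WT samples 1 and 2 stood below kn09 samples 1 and 2. The WT mean was 7.59 ± 1.74 and the kn09 mean 5.65 ± 1.11 (SD, n = 6 each). The normalized log2 difference was -0.42 ± 0.20 (SE; 95% interval -0.86 to 0.02; limma adjusted p = 0.179), and the rank went from 73.5 ± 13.9 to 98.5 ± 20.3 (SD, n = 6 each; exact permutation adjusted p = 0.139). With all samples the rank difference was -0.727 percentile points. Without WT samples 1 and 2, which for PSAN too were the only ones to overlap with kn09, it was -0.974 points. It then passed (exact permutation adjusted p = 0.0415), as 23.0% of all features did. In limma PSAN did not pass in that setting, with a log2 difference of -0.59 (limma adjusted p = 0.0624). Here too the rank pass followed from leaving out the samples that overlapped.

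Within each genotype, PSAN and LHB1B2 ordered the pairs of consecutive samples alike, and PSBW ordered them otherwise. Means of consecutive samples of LHB1B2 were 28.7, 40.0 and 35.8 in WT and 40.6, 25.8 and 32.8 in kn09. Those of PSAN had the same order in both genotypes, at 5.41, 9.0 and 8.37 in WT and 7.04, 4.86 and 5.04 in kn09. Those of PSBW were 42.3, 30.2 and 23.7 in WT and 37.2, 40.7 and 47.9 in kn09. The WT pair that was lowest for LHB1B2 and PSAN was thus the highest for PSBW, and the kn09 pair that was highest for both was the lowest for PSBW. The WT order was not particular to LHB1B2 and PSAN. Pair means of PSBY and LPA19, given above, had the order of LHB1B2 in WT but not in kn09. The Lhcb4 feature also followed LHB1B2 in WT, with 1.67, 3.42 and 3.01, but not in kn09, where it had 1.72, 2.44 and 2.50. With 3 pairs per genotype few orders are possible, and no test was made of these.

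**Figure D3:**
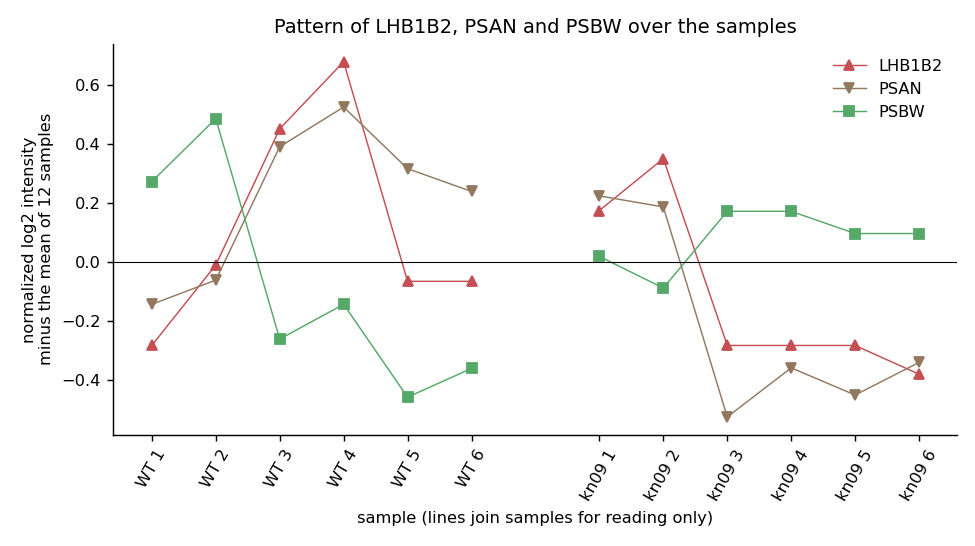
Quantile-normalized log2 intensity of LHB1B2, PSAN and PSBW in each of 12 samples, minus that feature's mean over the 12 samples. LHB1B2 and PSAN are both high in WT samples 3 and 4 and in kn09 samples 1 and 2, and PSBW is high in WT samples 1 and 2.

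Likeness was measured as the root mean square distance between centred log2 values over the 12 samples, among 417 features with 1 gene that were above 0 in all samples. LHB1B2 and PSAN were each other's nearest feature, at a distance of 0.185, where the median distance of a feature to its nearest was 0.312 and 10.3% of features had one nearer than 0.185. They were not mutually nearest in the other settings tried. PSAN took place 3 for LHB1B2 and LHB1B2 place 4 for PSAN both on the intensities as deposited and with median scaling, at a distance of 0.229. The places were 1 and 4 with means of consecutive samples, and 2 and 1 without WT samples 1 and 2, settings chosen after the data were seen. After quantile normalization of all samples, the next nearest were AT4G30740 for LHB1B2, at 0.237, and AT5G52530 for PSAN, at 0.209. Nearest to PSBY were AT4G25290 and AT1G55440, at 0.209 and 0.228, and nearest to PSBW were AT3G19810 and AT4G32060, at 0.134 and 0.212. For LPA19 they were AT3G46950 and AT4G27390, at 0.221 and 0.229. The photosystem II members were not near each other, with 0.448 between PSBY and PSBW, 0.784 between PSBW and LPA19, and 0.795 between PSBY and LPA19.

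The spread between samples lay mostly between consecutive pairs. Of the variance of log2 deposited intensity within genotypes, 95.5% lay between pairs for PSAN, 94.4% for PSBW, 91.1% for LHB1B2 and 80.3% for LPA19, against a median of 74.5% over the 2193 features above 0 in all samples. Independent samples would give 40% on average. PSBY was the exception at 28.1%, and its WT samples 1 and 2 differed by 1.79-fold. For PSAN the samples of a pair differed by at most 1.09-fold in WT and 1.17-fold in kn09, while the pair means spanned 1.66-fold and 1.45-fold. With consecutive samples as a random block the limma adjusted p was 0.245 for PSBY, 0.273 for LPA19, 0.317 for PSAN, 0.631 for LHB1B2 and 0.738 for PSBW.

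Ratios of features within a sample do not depend on a scale factor of that sample, and show unequal change without showing which feature changed. Of the 10 ratios between members, 1 did not overlap between genotypes, against 11.3% of 86736 ratios between features with 1 gene. It was PSBY over LPA19, at 5.65, 3.13, 1.96, 2.04, 2.40 and 2.09 in WT samples 1 to 6 and 11.8, 7.67, 9.0, 5.81, 7.10 and 8.69 in kn09. Every kn09 sample lay above every WT sample, WT sample 1 and kn09 sample 4 being closest, and the geometric mean was 3.06-fold higher in kn09. PSBW over LHB1B2 was 1.52, 1.44, 0.745, 0.766, 0.638 and 0.688 in WT and 0.904, 0.926, 1.46, 1.70, 1.41 and 1.52 in kn09. In that ratio WT samples 1 and 2 stood with kn09 samples 3 to 6, and kn09 samples 1 and 2 lay nearer to the other WT samples. When consecutive samples were averaged, 7 of the 10 ratios did not overlap, against 29.1% of all those ratios, but the 10 share members and are not independent. LHB1B2 over PSAN was the steadiest within genotypes, at 4.67 ± 0.527 for WT and 5.88 ± 0.783 for kn09 (SD, n = 6 each).

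**Figure D4:**
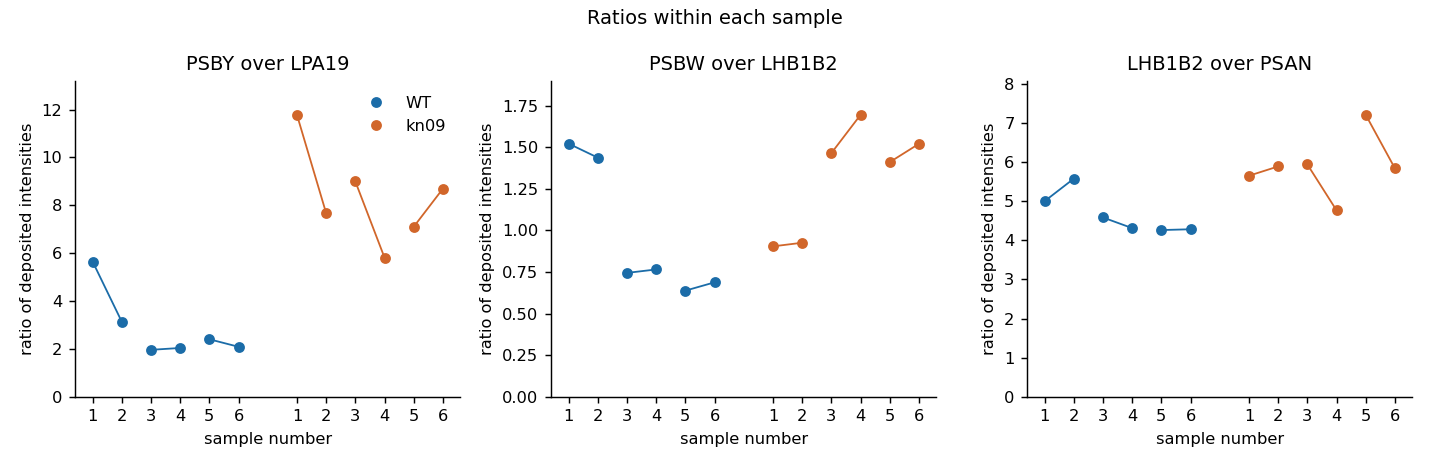
Ratio of deposited intensities within each sample for 3 pairs of genes, in samples 1 to 6 of WT (blue) and kn09 (orange), with consecutive samples joined. PSBY over LPA19 is at least 5.81 in all kn09 samples and at most 5.65 in all WT samples, while the other ratios overlap between genotypes.

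The direction of PSAN and LHB1B2 depended on the scaling. With each sample scaled to the same median, the log2 differences became 0.39 for PSAN and 0.72 for LHB1B2, neither past the threshold (limma adjusted p = 0.353 and 0.0747). Under the same scaling PSBY had 1.21 and PSBW 1.23, both called higher (limma adjusted p = 0.00511 and 0.0015), and LPA19 had -0.41. Of all 3439 features, 451 were called higher and 199 lower with that scaling. In the deposited intensities the median of all features was -0.85, and PSAN stood 0.44, LHB1B2 0.77, PSBY 1.26 and PSBW 1.28 above that median on the log2 scale, and LPA19 stood at -0.36 from it. PSBY and PSBW were higher in kn09, and LPA19 lower, under each of the 3 scalings, whether or not they passed. The median intensity and the number of zeros moved with genotype as given above, and their part in these differences was not tested.

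**Figure D5:**
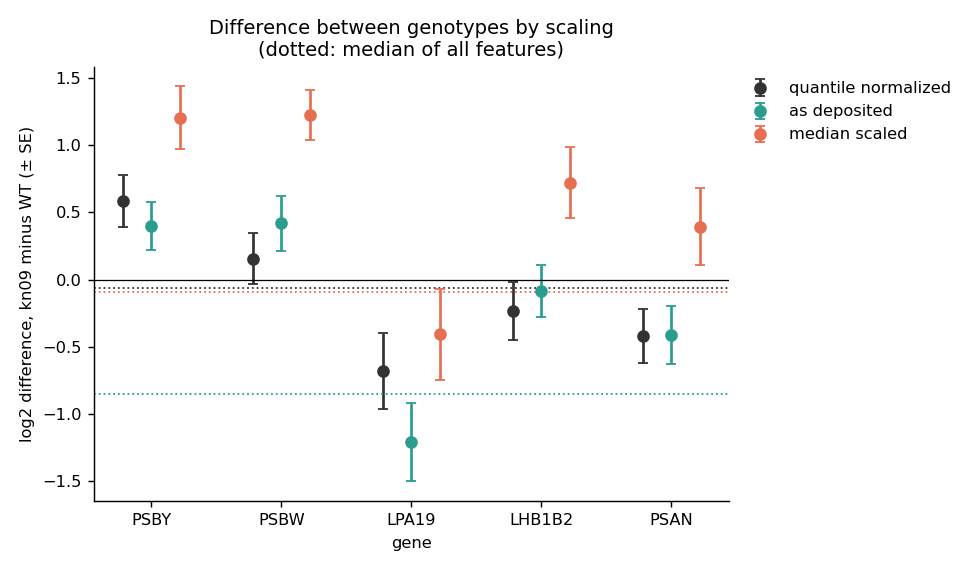
Log2 difference between genotypes (kn09 minus WT, ± SE from limma) of each gene after quantile normalization (black), on the intensities as deposited (green) and after median scaling (orange), with the median of all 3439 features under each scaling dotted. PSBY and PSBW lie above 0 and LPA19 below 0 under all 3, while PSAN and LHB1B2 lie above 0 only after median scaling.

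A photosynthesis list, matched by symbol and synonym, held 6 other genes on features with 1 gene. It did not hold the Calvin cycle enzymes SBPASE and PRK, of which PRK was called higher as given above. Of the 6 listed genes 0 passed in limma in either direction, with 2 at an unadjusted p under 0.05. Their median log2 difference was 0.31, against -0.24 for the 5 members and -0.06 for all features. In the same order they were -0.41, -0.08 and -0.85 on the intensities as deposited and 0.39, 0.72 and -0.10 with median scaling, so the sign flipped for the list in the former and for the members in the latter. PSB27, a photosystem II repair protein related to LPA19, stood at 1.52 ± 0.925 for WT and 1.10 ± 0.270 for kn09 (SD, n = 6 each), with a log2 difference of 0.02 ± 0.39 (SE; limma adjusted p = 0.970). Its WT pair means of 2.68, 1.14 and 0.736 were highest in samples 1 and 2, where those of LPA19 were lowest. CRR41, which assists assembly of the plastid NDH complex, had a log2 difference of 0.52 ± 0.31 (SE; limma adjusted p = 0.276). NdhS and NdhN, subunits of that complex, had log2 differences of -0.55 ± 0.20 and 0.68 ± 0.23 (SE; limma adjusted p = 0.0914 and 0.0677). The others were PIFI, needed for NDH activity, at 0.66 ± 0.46 (SE), and CRR21, an RNA-editing factor for an NDH transcript, at 0.10 ± 0.36 (SE).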

How the data were processed

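The deposited table gives a linear intensity for each of 3439 features in each sample. Scanning, background correction and scaling by the authors are not given in the sources used here. Every sample reaches 100 and no value is negative. The table has 0 columns that belong to no sample of the study. Intensities were quantile normalized in limma 3.58.1 (R 4.3.3). A floor was then set at the 1st percentile of positive normalized values (0.0062), zeros were placed at it, and log2 was taken. Genotype was the single term of a 2-sided limma fit (lmFit, eBayes), with p-values adjusted by Benjamini-Hochberg over the whole table and a threshold of 0.05. Percentile ranks of the deposited values were tested for every feature with an exact 2-sided permutation test over samples, adjusted likewise. Code was tested on simulated data. The number of arrays limits the precision, and 0 pairs of samples held identical values.

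Names came from the platform annotation, in which 692 features have 1 gene, 870 have several and 1877 have none listed. Symbols of 690 of the 692 were brought up to date through Entrez identifiers in the TAIR10.1 table. Named genes were the 5 members, the 2 genes with the smallest p in each role of a photosynthesis list matched by symbol and synonym, and the 2 features nearest to each member. PIFI and CRR21 complete that list and were named after their values were seen. The members and lists were chosen with earlier results of these data known. The array's genome build is not stated, so no coordinates are printed, and sequences were not used here. Scaling, zeros, floor, dim features, blocks of samples and samples left out were varied.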

Additional observations from a re-analysis of the deposited data

Results flagged for a closer look

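Among the members and the other genes on the photosynthesis list, 22 sets of 6 values were checked for a sample standing apart. Of these 1 was found, where chance flags about 1 set in 20. It was PIFI in WT sample 4, whose normalized log2 intensity was -5.87 while the remaining WT samples lay between -4.22 and -3.51. Its deposited intensity there was 0.0429, against 0.0682 to 0.134 in the remaining WT samples. None of the 5 members held such a sample.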

How the results depend on the processing

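The count of features called was 440, and 1257 on the intensities as deposited (99 higher and 1158 lower), 650 with median scaling (451 higher and 199 lower), 827 without WT samples 1 and 2, 82 with consecutive samples as a random block and 16 with their means, and ranged from 192 to 507 with 1 sample left out. Samples were numbered alike in both genotypes, but deviations of equally numbered samples correlated at only 0.0683 to 0.0995, although each WT sample correlated best with its own number. With that number as a replicate block 211 features were called and no member was, with a log2 difference of 0.58 for PSBY (limma adjusted p = 0.112). PSBY passed in limma at 1.21 with median scaling, 0.58 with a floor at the 5th percentile (limma adjusted p = 0.0445), 0.57 with a pseudocount of 0.05 and 0.58 without WT samples 1 and 2, and ranged from 0.49 to 0.68 with 1 sample left out, passing without WT sample 1 alone (limma adjusted p = 0.0361). Its rank difference of 2.26 points, ranging from 1.78 to 2.64, did not pass with sign flips of equally numbered samples (exact permutation adjusted p = 0.129) or with means of consecutive samples (0.393), tests whose smallest possible unadjusted p are 0.0312 and 0.1. PSBW passed at 1.23 with median scaling, and at a rank difference of 0.126 without WT samples 1 and 2. LPA19 passed at -1.21 as deposited and at -1.11 without WT samples 1 and 2, where its rank difference of -11.2 and that of PSAN of -0.974 passed too. The rank passes of PSBW, LPA19 and PSAN followed from leaving out the only WT samples that overlapped with kn09. Reversed values were those with median scaling of LHB1B2 (0.72) and PSAN (0.39), and the rank difference of LHB1B2 among features with 1 gene (0.0482 in place of -0.0679). Of the 6 other genes on the photosynthesis list 1, NdhS, was called lower as deposited and with zeros as missing. The causes of these changes were not tested. With 1 sample left out, log2 differences were 0.07 to 0.28 for PSBW, -0.85 to -0.59 for LPA19, -0.34 to -0.12 for LHB1B2 and -0.51 to -0.36 for PSAN, none called.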
